A study of Homo sapiens with 7 samples.

Results

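The 5 mature miRNAs described here are hsa-miR-486-5p, hsa-miR-486-3p, hsa-miR-451a, hsa-miR-144-3p and hsa-miR-144-5p, products of the MIR486 locus and the MIR144 and MIR451A cluster that are best known from the erythroid lineage. They were taken by name from a table of 2656 mature human miRNAs, of which 406 had at least 1 count. All 5 members had at least 1 count somewhere, and 2 of the 5, miR-486-5p and miR-451a, were among the 117 miRNAs that passed a filter on low counts and entered the fits across miRNAs. Small RNA-seq was performed on small extracellular vesicles (sEVs) shed into the medium by HepG2, a human hepatocellular carcinoma cell line. The cells carried a lentiviral, doxycycline-inducible short hairpin RNA, either scrambled as a control (shCTR, 3 libraries) or directed at SYNCRIP (shSYNCRIP, 4 libraries). SYNCRIP is an RNA-binding protein that takes part in sorting miRNAs into vesicles. Both groups were puromycin-selected pools and were grown in medium with vesicle-depleted bovine serum, and the vesicles were collected by differential centrifugation. The comparison asks which miRNAs differ in vesicles when SYNCRIP is silenced.

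The libraries held 106376, 146903 and 388226 miRNA counts in shCTR and 150810, 29863, 240984 and 114983 in shSYNCRIP. By depth and miRNAs detected, 2 libraries stood apart: shSYNCRIP replicate 2 was the shallowest, and shSYNCRIP replicate 4 had 100 detected miRNAs against 180 to 275 in the others. Group differences of miR-451a and the calls of other miRNAs set beside it are given with and without them. Leaving out both together was chosen after the data had been seen. The titles name HepG2 throughout, whereas the cell line field of the labels runs upward from HepG2 to HepG8. SYNCRIP itself is not a miRNA and its silencing could not be checked in this table. The study reports lower SYNCRIP in the silenced HepG2 cells by RT-qPCR and by Western blot. The counts carry no mark of the cell or species a molecule came from, so the part of serum or other cells in the values was not tested. In bulk material, fewer vesicles carrying a miRNA and fewer copies per vesicle cannot be told apart.

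Red cell precursors make these miRNAs in large amounts. The MIR144 and MIR451A hairpins are cut from the same primary transcript under the erythroid factor GATA1, and miR-451a is matured by the slicer activity of AGO2 without Dicer, so its hairpin gives no ordinary partner arm. MIR486 lies within ANK1, which encodes the red cell membrane protein ankyrin, and is also expressed in muscle. The MIR486-1 and MIR486-2 hairpins overlap on opposite strands and give the same miR-486-5p, so counts of the mature miRNA cannot be assigned to either.

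In the annotation of GRCh38 (GENCODE release 29), both MIR486 hairpins lie in ANK1 without overlapping an ANK1 exon, and are therefore intronic. MIR451A (chr17:28861369-28861440) and MIR144 (chr17:28861533-28861618) lie on the minus strand in an exon of the long non-coding RNA AC024267.1, with 92 bases between them. MIR4732 (chr17:28861655-28861730) follows on the same strand, and MIR451B (chr17:28861371-28861438) overlaps MIR451A on the opposite strand. The whole group of hairpins spans 362 bases.

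Of the 5 members, 2 matched the RefSeq sequence table (GRCh38.p14). The arms of miR-144 are shown because they had over 100 counts in 1 library and 0 in the others, with the seed (bases 2 to 8) in capitals. miR-101-3p is added because it comes closest to the miR-144-3p seed.
miR-144-5p: gGAUAUCAucauauacuguaag
miR-144-3p: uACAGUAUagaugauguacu
miR-101-3p: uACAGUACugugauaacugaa
The hairpin below, from chr17:28861533-28861618 on the minus strand, holds the 5p arm at bases 15 to 36 and the 3p arm at bases 52 to 71, each in capitals.
MIR144 hairpin: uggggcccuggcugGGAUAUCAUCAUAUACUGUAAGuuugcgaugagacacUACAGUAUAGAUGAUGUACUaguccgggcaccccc
No miRNA of the sequence table shared bases 2 to 8 with either arm of miR-144. miR-101-3p shared bases 2 to 7 with miR-144-3p, and it had 11 counts in all 7 libraries together and at most 5 in any library. SYNCRIP is known to bind a short motif called hEXO in miRNAs, searched here on the mature strand after the first 7 bases as 3 bases other than C, then a base other than U, then A or U, then G or C. miR-144-3p held 2 matches, the first UAGAUG from base 8, and miR-144-5p held 2, the first AUACUG from base 13. A match was found in 63.6% of the 2370 mature miRNA names of the table, which these arms share with most miRNAs.

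miR-486-5p, the guide arm of miR-486, was one of the most abundant miRNAs of every library. It had 19681, 16232 and 34044 counts in shCTR and 17387, 2644, 23181 and 9816 in shSYNCRIP. As a share of all miRNA counts of the library this was 18.5%, 11.0% and 8.77% in shCTR and 11.5%, 8.85%, 9.62% and 8.54% in shSYNCRIP. The highest share was in shCTR replicate 1, the other 6 libraries lay close together, and the groups overlapped. Each share has a narrow counting interval, for example 8.54% to 9.18% in the shallowest library (Wilson, 95%). Intervals and limits of this kind cover counting error only, because amplified reads are not independent molecules.

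Among all miRNAs of a library, miR-486-5p ranked first in shCTR replicates 1 and 2 and in shSYNCRIP replicates 1 and 3. There miR-16-5p, a ubiquitous miRNA that is also plentiful in red cells, came next, and miR-486-5p had 1.02 to 2.45 times its counts. Mature miRNAs are alike in length, so no length correction was made, but ligation and amplification can differ between miRNAs and ranks compare reads, not molecules. In shCTR replicate 3 and shSYNCRIP replicate 2 it ranked 3, behind miR-6767-5p as the most abundant, and in shSYNCRIP replicate 4 it ranked 2, behind miR-203a-3p. The abundance of miR-486-5p was also among the steadiest. Its log2 CPM (counts scaled to a common library size) had an SD of 0.37 over the 7 libraries, the smallest but 2 among 117 tested miRNAs, against a median SD of 2.57. Other abundant miRNAs were similarly steady, with an SD of 0.36 for miR-16-5p and 0.51 for miR-23a-3p. A small SD was thus not particular to miR-486-5p.

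**Figure D1:**
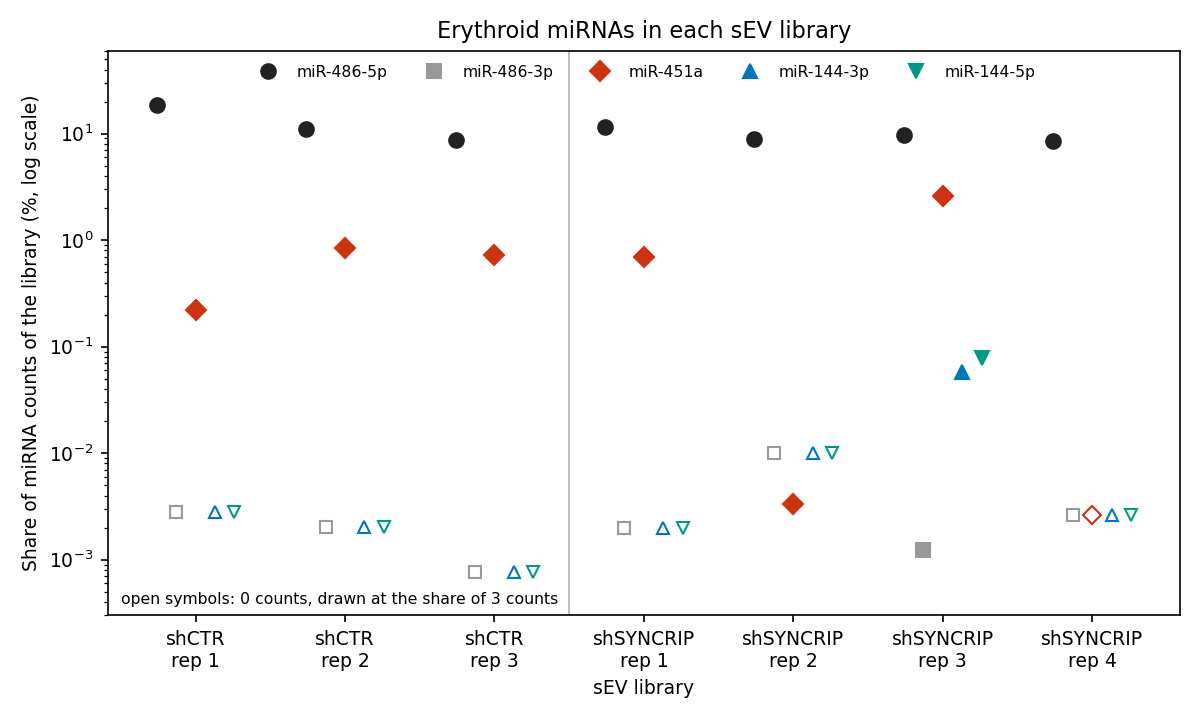
Share of the miRNA counts of each sEV library (y axis, percent, log scale) for the 5 members in the 3 shCTR and 4 shSYNCRIP libraries (x axis), 1 symbol per library and member. Open symbols are counts of 0, drawn at the share of 3 counts, and miR-486-5p stays between 8.54% and 18.5% while miR-451a runs from 0 to 2.61% and the arms of miR-144 have counts in shSYNCRIP replicate 3 alone.

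The share of miR-486-5p was 12.8% ± 5.09 (SD, n = 3) in shCTR and 9.63% ± 1.34 (SD, n = 4) in shSYNCRIP. The difference of -3.14 percentage points was smaller than the spread of the shCTR libraries (two-sided exact permutation test over 35 splits, p = 0.343, where the smallest possible p is 0.0286). Without shCTR replicate 1 the difference was -0.275 percentage points. In limma-voom, the test used in the study, the log2 fold change was -0.23 (SE 0.29, adjusted p = 0.992). In the quasi-likelihood test of edgeR it was -0.36 (adjusted p = 0.983). The limma-voom value missed the study's criteria with all 7 libraries (these ask for an unadjusted p under 0.1 together with a fold change cutoff of 0.5, whose scale the methods do not name and which was read here as log2). It met them at -0.63 without shCTR replicate 2, at -0.52 without shCTR replicate 3 and at -0.54 without shSYNCRIP replicate 4. It also met them at -0.62 with the size factors of DESeq2 and at -0.58 without a filter on low counts. Adjusted p values ran from 0.301 to 0.688 in these limma-voom fits.

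miR-486-3p, the opposite arm, was almost absent beside it. It had 3 counts in shSYNCRIP replicate 3 and 0 in the other 6 libraries. In these libraries a 0 sets an upper limit, taken at 3 counts, that runs from 0.000773% for shCTR replicate 3 to 0.0100% for shSYNCRIP replicate 2. In shSYNCRIP replicate 3 there were 7727 counts of miR-486-5p for each count of miR-486-3p. At that ratio, 0.342 to 4.41 counts of miR-486-3p would stand in each of the other libraries, the highest in shCTR replicate 3 and the only one above the limit of 3 counts. The 3 counts the ratio rests on leave it imprecise. A ratio with so few counts was not tested between the groups.

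miR-451a, the product of the other locus, varied far more. It had 236, 1241 and 2803 counts in shCTR and 1042, 1, 6279 and 0 in shSYNCRIP. The shares were 0.222%, 0.845% and 0.722% in shCTR and 0.691%, 0.00335%, 2.61% and 0 in shSYNCRIP, where the 0 allows up to 0.00261%. The highest and the lowest values of all 7 libraries were thus both in shSYNCRIP, shSYNCRIP replicate 1 was level with shCTR, and the groups overlapped. By rank it stood at 64, 32 and 30 in shCTR and at 32, 130 and 8 in shSYNCRIP replicates 1 to 3. The SD of its log2 CPM over the 7 libraries was 4.24, which ranked 112 of 117 from the steadiest to the most variable. The 1 and 0 counts fell in shSYNCRIP replicates 2 and 4, the libraries that stood apart by depth and by miRNAs detected, and the part of depth and of low material in them was not tested.

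Which group was higher depended on the scale. The mean share of miR-451a was 0.596% ± 0.330 (SD, n = 3) in shCTR and 0.825% ± 1.23 (SD, n = 4) in shSYNCRIP, so that shSYNCRIP was higher by 0.229 percentage points (exact permutation test, two-sided, p = 0.971). The median share was lower in shSYNCRIP, by -0.375 percentage points. On the log2 CPM scale the means were 12.36 ± 1.04 (SD, n = 3) in shCTR and 9.17 ± 5.43 (SD, n = 4) in shSYNCRIP, with a difference of -3.19 between them (exact permutation test, two-sided, p = 0.371). Without shSYNCRIP replicate 3, which carried the largest share, the mean share was also lower in shSYNCRIP, by -0.365 percentage points, and without replicates 2 and 4 it was 1.05 percentage points higher.

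The same split appeared between the count models. In limma-voom the log2 fold change of miR-451a was -3.62 (SE 1.97, adjusted p = 0.460), which met the study's criteria. This was 1 of the 2 members tested, whereas 17.9% of all miRNAs tested met these criteria, and 12.8% did so in the lower direction. In the quasi-likelihood test of edgeR the log2 fold change was 0.60, of the opposite sign (adjusted p = 0.983), and in DESeq2 it was 0.60 (SE 2.09, adjusted p = 0.987). By an adjusted p under 0.05, 0 of the 2 members passed in the quasi-likelihood test, against 0% of all miRNAs tested. At an unadjusted p under 0.05 the quasi-likelihood test called 0 members and 1.71% of all miRNAs, and DESeq2 called 0 members and 2.56% of all miRNAs by adjusted p. The 2 groups overlapped for both members, whereas 6.84% of the miRNAs tested had no overlap in log2 CPM.

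The limma-voom call of miR-451a changed with single libraries. It was lost without shCTR replicate 3 (log2 fold change -3.25, adjusted p = 0.833), when shSYNCRIP replicate 2 was left out (-2.52, adjusted p = 0.813) and when shSYNCRIP replicate 4 was (-0.11, adjusted p = 0.992). Without shSYNCRIP replicates 2 and 4 together, an alternative chosen after seeing the data, it was 1.02 (adjusted p = 0.844). Without shSYNCRIP replicate 3 it was -6.29, with an adjusted p of 0.0411 in limma-voom, but -1.77 with an adjusted p of 0.946 in the quasi-likelihood test. Where a library has 1 or 0 counts, a fitted value also depends on the prior count of the model.

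**Figure D2:**
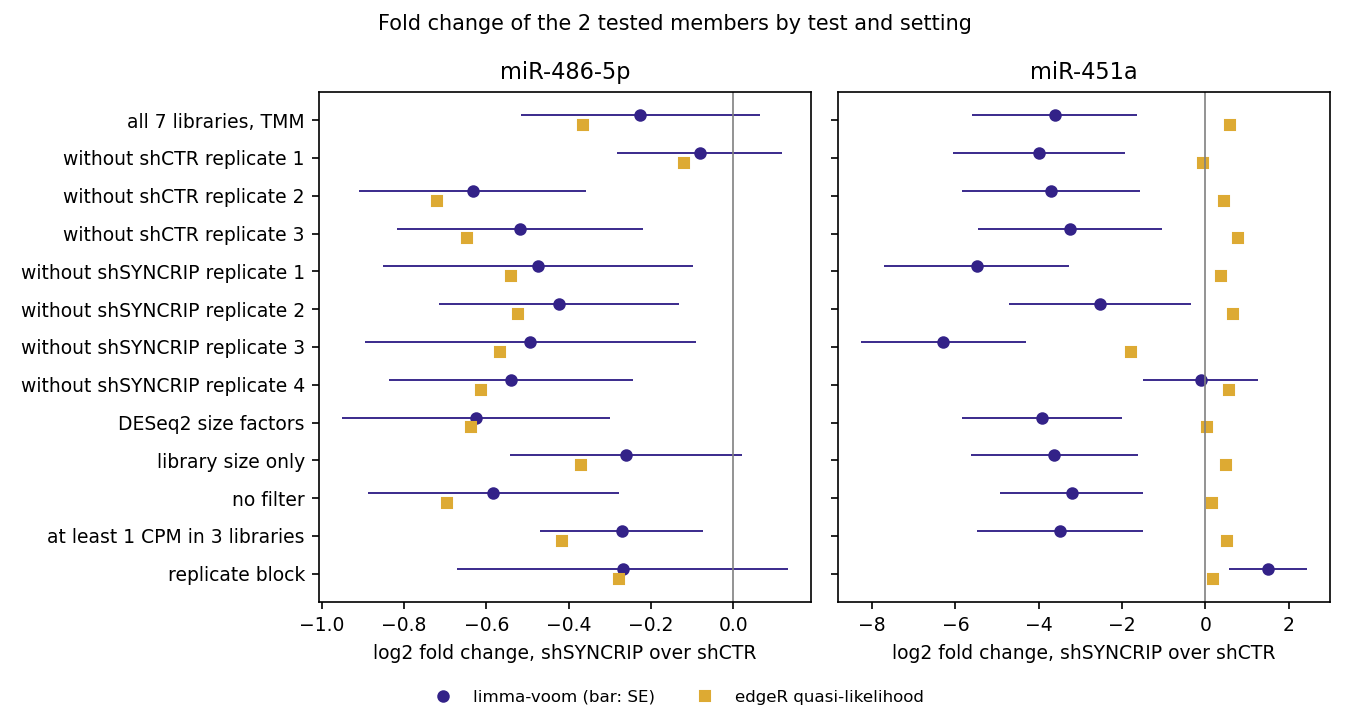
Log2 fold change of shSYNCRIP over shCTR (x axis) for miR-486-5p and miR-451a under each setting (y axis), from limma-voom (circles, bars are the SE) and the quasi-likelihood test of edgeR (squares), with a different x range in each panel. miR-486-5p is below 0 in every setting drawn, whereas for miR-451a limma-voom lies at -3.62 and the quasi-likelihood test at 0.60 with all 7 libraries.

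The arms of miR-144, which shares its primary transcript with miR-451a, were counted in 1 library. miR-144-3p, the arm usually taken as the guide, had 138 counts in shSYNCRIP replicate 3 and 0 in the other 6 libraries. miR-144-5p had 188 counts in shSYNCRIP replicate 3 and 0 in the other 6. These were 0.0573% and 0.0780% of that library, which also had the highest share of miR-451a. The counts of the arms printed above thus come from that library, and neither arm passed the filter on low counts. With all counts in 1 library of the larger group, a permutation test of all 7 libraries can give no other p than 1, so none is read from it. Of the 4 shSYNCRIP libraries 3 were at 0, as were all 3 shCTR libraries. Both arms were measured there at near levels, with 0.734 counts of the 3p arm for each count of the 5p arm.

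In shSYNCRIP replicate 3, miR-144-5p amounted to 2.99% of the miR-451a count, and there were 45.5 counts of miR-451a for each count of miR-144-3p. Had the same ratios held elsewhere, by scaling alone, shCTR replicate 3 would have had 61.6 counts of miR-144-3p and 83.9 of miR-144-5p. The corresponding numbers were 27.3 and 37.2 in shCTR replicate 2, 22.9 and 31.2 in shSYNCRIP replicate 1 and 5.19 and 7.07 in shCTR replicate 1. None of these 4 libraries had a count of either arm. With counts of 0 taken at 3, miR-451a was at least 78.7-fold to 934-fold above miR-144-3p in them, for counting error only. As counted, these limits lie above the 45.5 of shSYNCRIP replicate 3, a ratio that comes from 1 library. Whether the ratio of the molecules differed between libraries, beyond loss of rare miRNAs in a library, was not tested. The difference between the groups in this ratio was not tested, since miR-144-3p was at 0 in 6 libraries.

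**Figure D3:**
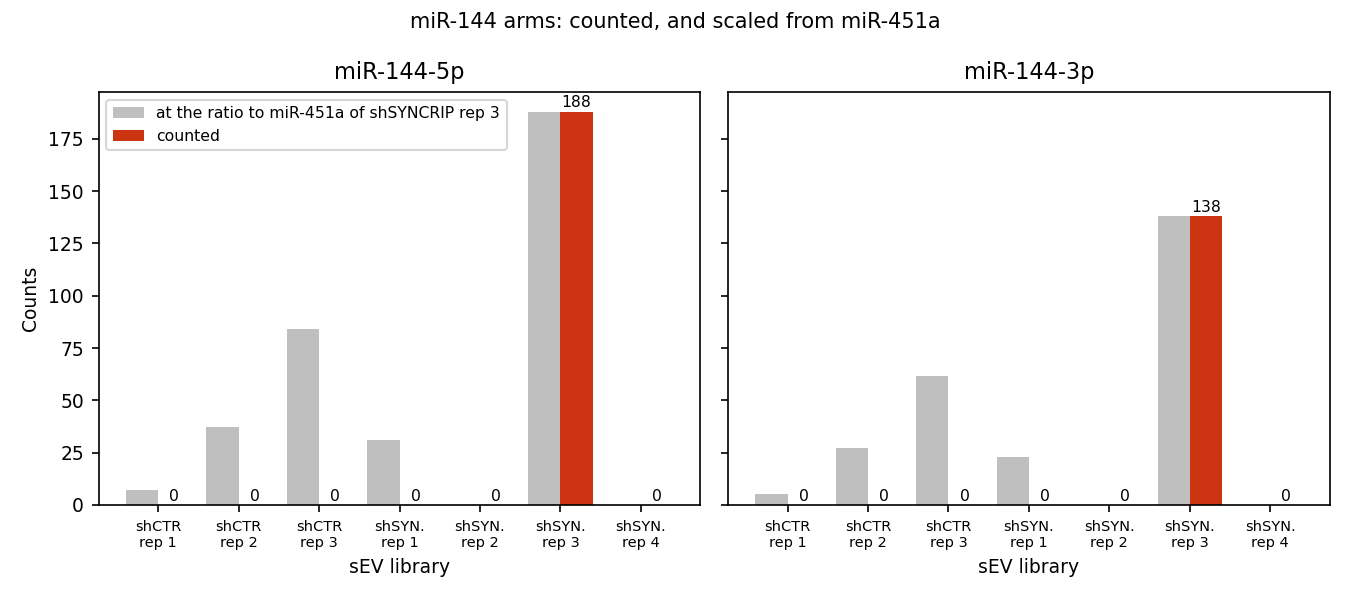
Counts of miR-144-5p and miR-144-3p (y axis) in each sEV library (x axis), as counted and as they would be at the ratio to miR-451a of shSYNCRIP replicate 3. Counted values are 188 and 138 in shSYNCRIP replicate 3 and 0 in every other library, where the scaled values reach 83.9 and 61.6 in shCTR replicate 3.

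Of the other miRNAs of the locus, none was detected. miR-451b, miR-4732-5p and miR-4732-3p had 0 counts in all 7 libraries. Counts of the members themselves were either very low or high. Of the 35 values of 5 members in 7 libraries, 19 were 0, 2 were from 1 to 3, 0 were from 4 to 99 and 14 were at least 100. Over all miRNAs, 19.8% of the values above 0 lay from 4 to 99.

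Whether the products of the 2 loci move together was read from miR-486-5p and miR-451a, the only pair that passed the filter. There were 83.4, 13.1 and 12.1 counts of miR-486-5p for each count of miR-451a in shCTR and 16.7 and 3.69 in shSYNCRIP replicates 1 and 3. In shSYNCRIP replicate 2 it was 2644 counts to 1, and in shSYNCRIP replicate 4 at least 3272, with the 0 taken at 3 counts. The mean log2 ratio was 3.18 higher in shSYNCRIP (two-sided exact permutation test, p = 0.4). It was 1.01 without shSYNCRIP replicate 4, 5.14 without replicate 3 and, with the opposite sign, -1.59 without replicates 2 and 4. Over the 7 libraries Pearson's r of their log2 CPM was 0.249 (exact permutation test, p = 0.618) and Spearman's rho was 0.286 (exact permutation test, p = 0.556), for the 1 pair computed. Without shCTR replicates 1 and 3, the libraries farthest from the median of miR-486-5p, r was 0.876 over 5 libraries. With deviations taken from each group's mean, r was 0.0982, and it was 0.0951 without shSYNCRIP replicate 2 and 0.154 without replicate 4. A common movement of the members was not detectable with these libraries.

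The miRNAs most like each member were taken by Spearman's rho of log2 CPM over the 7 libraries, as a description, since all share library depth and composition. For miR-451a these were miR-16-5p (0.964), miR-194-5p (0.929), miR-98-5p (0.929), miR-877-5p (0.889) and miR-342-3p (0.883), against a median of 0.179 over all tested. miR-16-5p kept its order with miR-451a over a narrow range, from 4.21% to 9.45% of a library, with an SD of log2 CPM of 0.36 against 4.24 for miR-451a. For miR-486-5p they were miR-18a-5p (0.964), miR-148a-3p (0.893), miR-1290 (0.811), miR-26b-5p (0.714) and miR-126-5p (0.679), against a median of 0.143. miR-451a itself was at 0.286 with miR-486-5p, and neither list held a miRNA of the other. Several of these miRNAs were near the floor in some libraries. Like miR-451a, miR-194-5p, miR-877-5p and miR-342-3p had 0 or 1 counts in shSYNCRIP replicates 2 and 4. miR-148a-3p and miR-1290 had 0 to 3 counts in shCTR replicate 3 and in shSYNCRIP replicates 2 and 4. The part of these low counts in rho was not tested.

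**Figure D4:**
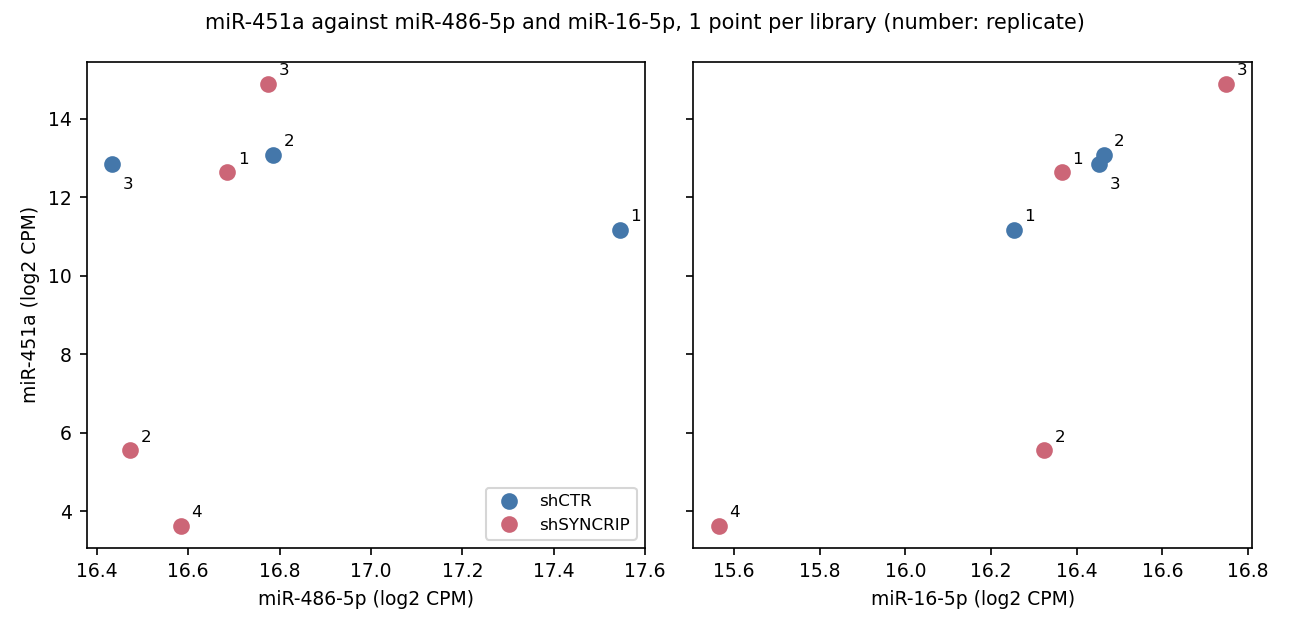
log2 CPM of miR-451a (y axis) against miR-486-5p (left x axis) and miR-16-5p (right x axis), 1 point per library, coloured by group and numbered by replicate. The order of the libraries by miR-451a follows that by miR-16-5p (rho 0.964) more closely than that by miR-486-5p (rho 0.286).

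Other miRNAs that are plentiful in red cells were listed from general knowledge. Of 10, all 10 had a count, 6 were tested and 0 met the study's criteria in either direction. Over all miRNAs tested 17.9% met them, 12.8% in the lower and 5.13% in the higher direction, so a count of 0 among 6 says little. The summed share of these 10 was 11.4% to 13.3% in shCTR and 8.72% to 14.2% in shSYNCRIP. By Spearman's rho with miR-451a, miR-25-3p was at 0.857 and miR-92a-3p at -0.607. Their median log2 fold change in limma-voom was -0.31, against -0.07 over all 117 miRNAs and -1.92 over the 2 tested members. In the quasi-likelihood test these medians were -0.25, 0.09 and 0.12.

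Markers of other cells were summed beside the members. Of 7 leukocyte miRNAs, 5 entered the fit, 2 of these met the study's criteria in the lower direction and 0 in the higher. Over all miRNAs tested, 12.8% met them in the lower and 5.13% in the higher direction. The 2 were miR-142-5p (log2 fold change -4.50 in limma-voom, adjusted p = 0.367) and miR-342-3p (-5.06, adjusted p = 0.398). The quasi-likelihood values were -1.57 and -2.17 (adjusted p = 0.983 for each, edgeR). Both calls ended when either shSYNCRIP replicate 2 (-3.58 and -4.32) or replicate 4 (-3.23 and -4.14) was left out, and with both replicates out the limma-voom values were -0.62 and -2.33. That of miR-342-3p also ended without shCTR replicate 2 (-3.55) or 3 (-3.24). The tested leukocyte miRNAs that were not called stood at -2.85 (miR-223-3p), -1.94 (miR-150-5p) and 0.10 (miR-142-3p) in limma-voom. miR-142-3p is the opposite arm of miR-142-5p and did not follow it. The summed share of the leukocyte list was 1.16% to 3.10% in shCTR and 0.317% to 1.83% in shSYNCRIP, with the lowest values in shSYNCRIP replicates 2 and 4. Of the 2 endothelial and platelet miRNAs, miR-126-3p met the criteria in limma-voom (-4.33, adjusted p = 0.440) and stood at -2.13 in the quasi-likelihood test (adjusted p = 0.983). Its call ended without shCTR replicate 2 (-3.69), shCTR replicate 3 (-2.33), shSYNCRIP replicate 2 (-4.13) or shSYNCRIP replicate 4 (-1.72), and leaving out the last pair together gave -1.08. The opposite arm, miR-126-5p, stood at -0.69 in limma-voom (adjusted p = 0.992) and did not meet the criteria. The summed share of the pair was 1.06% to 3.44% in shCTR and 0.0234% to 1.98% in shSYNCRIP. The summed share of leukocyte miRNAs was lowest in the same 2 libraries in which miR-451a was at 1 and 0 counts, and the endothelial sum was lowest there too, and their part in its values was not tested.

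Of 6 hepatocyte miRNAs 3 were tested and 0 met the criteria in either direction, which 17.9% of all miRNAs tested did, so a count of 0 among 3 says little. miR-122-5p, the defining miRNA of hepatocytes, had counts in all 7 libraries, from 313 to 1664, whereas miR-122-3p and miR-885-5p were at 0. The summed share of this list was 0.523% to 1.01% in shCTR and 0.272% to 1.49% in shSYNCRIP, below that of miR-486-5p in every library. The ratio of miR-451a to miR-23a-3p, used in plasma as a measure of red cell content, was 0.0750, 0.282 and 0.210 in shCTR and 0.178, 0.000921, 0.853 and 0 in shSYNCRIP. The mean log2 ratio was lower by -3.96 in shSYNCRIP (two-sided exact permutation test, p = 0.371), and the groups overlapped. It moved to -1.47 without shSYNCRIP replicate 4 and to -6.07 without replicate 3, and reversed to 1.25 without replicates 2 and 4. miR-23a-3p made up 2.96% to 3.44% of the shCTR and 3.05% to 7.37% of the shSYNCRIP libraries, the highest in shSYNCRIP replicate 4. The 5 members together made up 13.4% ± 4.79 (SD, n = 3) of the shCTR and 10.5% ± 2.08 (SD, n = 4) of the shSYNCRIP libraries. Most of it was miR-486-5p in every library, with the largest other part in shSYNCRIP replicate 3, where miR-451a was 2.61% beside 9.62% for miR-486-5p.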

How the data were processed

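Small RNA-seq libraries of sEVs were prepared with a NEXTFLEX kit, and the authors removed adapters (FastqToolkit), filtered reads by length and quality (Cutadapt), kept forward reads and quantified them with MiRDeep2 against miRBase. They deposited raw counts per mature miRNA, without normalization. How reads fitting several miRNAs were counted is not given in the sources used here. Columns were matched to samples by group and replicate number in the titles.

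From these counts, miRNAs were kept by filterByExpr (117 of 2656), scaled by TMM and tested with limma-voom (limma 3.58.1) and the quasi-likelihood test of edgeR 4.0.16 with Benjamini-Hochberg adjustment over all miRNAs tested. DESeq2 1.42.0 was an alternative. Shares and log2 ratios (0.5 added to each count) were compared by exact permutation in Python 3.11.15, and log2 CPM used a prior count of 2. The tests were tried on simulated counts. The study calls its replicates biological and independent.

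The members and lists were chosen with earlier results of these data known. Named miRNAs are the 5 members, the lists, and the 5 miRNAs most like each tested member. miR-6767-5p and miR-203a-3p, above miR-486-5p in rank, and miR-101-3p, for its seed, were named in addition. Precision of rare miRNAs is limited by totals of 29863 to 388226 counts. Size factors, filters, tests, sample weights, a replicate block and leaving out libraries were varied.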

Additional observations from a re-analysis of the deposited data

Results flagged for a closer look

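In 13 groups of 4 shSYNCRIP values examined, 1 library stood far from the other 3 in 4 groups. Chance gives about 1 such group in 20 among continuous values, a rate that does not apply here, since the other 3 values were 0 in each of the 4 groups and any count at all would then stand apart. All 4 were shSYNCRIP replicate 3. Its share of miR-144-3p was 0.0573%, that of miR-144-5p 0.0780% and that of miR-486-3p 0.00124%, each against 0 in the other 3 libraries. The log2 ratio of miR-144-3p to miR-144-5p was -0.44 there and 0 in the others, where both arms were at 0 and the value only reflects the 0.5 added to each count. The 4 values come from the same library and are not independent of each other.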

How the results depend on the processing

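The number of members meeting the study's criteria was 1 with all 7 libraries and TMM, where 17.9% of all miRNAs tested met them. It was 2 with DESeq2 size factors and 4 without a filter (miR-451a and miR-486-5p lower, both arms of miR-144 higher, of 5 tested). The miR-144 calls rest on shSYNCRIP replicate 3, with 188 counts of miR-144-5p, 138 of miR-144-3p and 0 in every other library. The share of all miRNAs called in these settings is not given here, so the counts are not read as a result about the members. The number of members was 0 with the replicate block, with sample quality weights, in the quasi-likelihood test with the same criteria, in the DESeq2 Wald test and without shSYNCRIP replicates 2 and 4, and it ranged from 0 to 2 with each library left out. In the quasi-likelihood test, 0 members had an adjusted p under 0.05 in every setting run. For miR-451a the limma-voom log2 fold change turned from -3.62 to 1.52 with the replicate block, 1.02 without shSYNCRIP replicates 2 and 4 and 0.60 in DESeq2, and ranged from -6.29 to -0.11 with each library left out. Its quasi-likelihood value of 0.60 ranged from -1.77 to 0.78, and was -0.05 when shCTR replicate 1 was dropped and -1.77 when shSYNCRIP replicate 3 was. The difference in its share turned to -3.19 on the log2 CPM scale and -0.375 percentage points by the median, and ranged from -0.365 to 0.504 with each library left out. Without shSYNCRIP replicates 2 and 4, the log2 ratio of miR-486-5p to miR-451a turned from 3.18 to -1.59 and that of miR-451a to miR-23a-3p from -3.96 to 1.25. For miR-486-5p the direction held in every setting run, from -0.63 to -0.08 in limma-voom with each library left out. Its share difference ranged from -5.14 to -0.275 percentage points. Causes were not tested. No pairing by replicate number was visible in the deviations from the group means (correlations -0.064, -0.033 and 0.088). So few libraries cannot show whether they were prepared in pairs, and the block is given beside the unpaired fit. Replicate 4 exists in shSYNCRIP alone, so with the block that library adds nothing to the group difference. In all, 174 values under an alternative kept their direction and side of the threshold or moved by less than the replicate spread. Another 10 reversed, 9 moved further, 5 newly passed the threshold and 4 no longer passed it. The 174 are no measure of stability, since many are shares or ratios of miR-486-3p and the miR-144 arms, counted in shSYNCRIP replicate 3 alone. They also include member counts of 1 without shCTR replicate 3 and without shSYNCRIP replicate 4, where the member called was miR-486-5p in place of miR-451a.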
